A study of Mus musculus with 15 samples.

Results

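The genes described here encode the proteins that choose splice sites in cortical cells: the SR proteins, the SR-related proteins Tra2a, Tra2b, Srrm1 and Srrm2, the hnRNP proteins, the Luc7-like proteins and the polypyrimidine tract binding proteins Ptbp1 and Ptbp3. They were taken by symbol from a table of 44260 genes, of which 41 symbols matched. The X-linked Hnrnph2 and the pseudogene Hnrnpa1l2-ps were left out, which leaves 39 genes on autosomes: 11 SR, 4 SR-related, 19 hnRNP, 3 Luc7-like and 2 Ptbp genes. All 39 passed the filter on low values, which asked for an average of at least 10 across the 6 allele columns. The cells were SpretB6 F1 hybrids, which hold a genome copy of the laboratory strain C57BL/6J (B6) beside a copy of Mus spretus (Spret), a wild-derived mouse species. Organoids that model the cerebral cortex were grown from epiblast stem cell lines of this hybrid, and RNA was read by bulk sequencing from 3 libraries of day 12 organoids. The labels name no agent and no engineered allele, and the tissue label names the stem cells rather than the organoids. Another 12 induced pluripotent stem cell samples from 4 hybrid crosses are listed in the series and were not analysed here.

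SR proteins carry an RNA-binding domain and a tail rich in arginine and serine. They bind exons and recruit the splicing machinery, and their activity depends on phosphorylation by the SRPK and CLK kinases. The hnRNP proteins coat nascent RNA and often, though not always, keep exons out of the message. Luc7-like proteins work with the U1 particle at the 5′ splice site. Ptbp1 holds neuronal exons silent in progenitors and non-neuronal cells, and its loss during differentiation releases the neuronal splicing programme. Many genes of these families regulate their own messages through exons that send the transcript to nonsense-mediated decay.

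The comparison within each library was Spret against B6, so that both alleles were read from the same cells and the same RNA. It gives differences in RNA between alleles, and whether these reflect regulatory differences that act in cis between these mice was not tested. Values are normalised allele-specific read numbers, and ratios are log2(Spret value + 1) minus log2(B6 value + 1), so that a positive ratio means more RNA from Spret. Errors given with a ratio are limma standard errors. A gene was called when limma's adjusted p was under 0.05. The allele columns summed to between 2088788 and 3027078. Divided by scale factors estimated from the values, this is roughly 1.64M to 4.50M reads a column, with the most in library 3. Of the cortical markers used to check the tissue, Neurod6 stood at 4730, 4871 and 3177 over both alleles of libraries 1 to 3, and Eomes at 1611, 1393 and 1117, both lowest in library 3. Tbr1 at 245, 234 and 508, Dcx at 5521, 5705 and 6492 and Map2 at 8725, 8041 and 9889 were highest there. The 10 pluripotent stem cell markers added up to 103, 158 and 53, most of it from Pou5f1 at 57, 63 and 13 and Esrrb at 14, 33 and 20, with Nanog at 1, 5 and 3. X-linked values came from Spret at no more than 0.100% and Y-linked values at no less than 99.3%, so the mother was B6 and the father Spret. With no reverse cross analysed, every autosomal ratio carries strain and parent of origin together, and these cannot be told apart. Autosomal genes leaned to B6, with a median ratio of -0.13. Centring each library, which removes shifts of -0.126, -0.126 and -0.119, is therefore given beside the calls. Nothing in the labels says that the 3 libraries came from separate cultures, so the spread between them may be technical. The p-values rest on that spread in the gene and, more heavily, in other genes of like value. The fit had 2 residual and 12.3 prior degrees of freedom.

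Of the 39 genes, 15 differed between alleles, 10 higher from B6 and 5 higher from Spret. The share called among all tested autosomal genes was 28.4%, with 20.7% higher from B6 and 7.78% higher from Spret, against 38.5% of the splicing factors. The test calls more genes where values are high. Among abundant autosomal genes, those averaging at least 500, it called 50.9%, and among the 15 splicing factors of that level it called 7, or 46.7%. Toward Spret these were 146 of 884 autosomal genes and 3 of the 15, and toward B6 304 and 4. The differences were small. Ratios ran from -0.74 for Srsf3 to 0.69 for Hnrnpf, with a median of -0.08 against -0.13 for autosomal genes. At a mean of at least 500 the median was -0.07 for the splicing factors and -0.06 for autosomal genes. None of the 39 reached 2-fold, against 7.83% of tested autosomal genes and 2.60% of the abundant ones. The 3 values of the alleles did not overlap in 3 of the 39 genes, Srsf3, Hnrnpd and Hnrnpf, where 23.8% of tested autosomal genes had alleles that did not overlap. With centred ratios there were 10 calls, 8 toward Spret and 2 toward B6, where the autosomal shares were 13.3% and 13.5%. Of the 884 abundant autosomal genes, 273 were then called toward Spret and 169 toward B6. Of the 15 abundant splicing factors the numbers were 3 and 0. Srsf3 and Ptbp1 toward B6 and Hnrnpd, Hnrnpf, Hnrnph1, Hnrnpl and Hnrnpa1 toward Spret were called both ways. The number called was 2 without library 1 (Srsf3 and Hnrnpa1), 7 without library 2 and 7 without library 3. The autosomal shares called in these fits were 14.4%, 23.5% and 17.6%. The number was 1 (Srsf3) without the library term, 1 (Srsf3) without limma's intensity trend, and 0 with no filter on low values, where 17 had an unadjusted p under 0.05. Autosomal shares called in these settings were 7.03%, 11.5% and 1.72%.

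**Figure D1:**
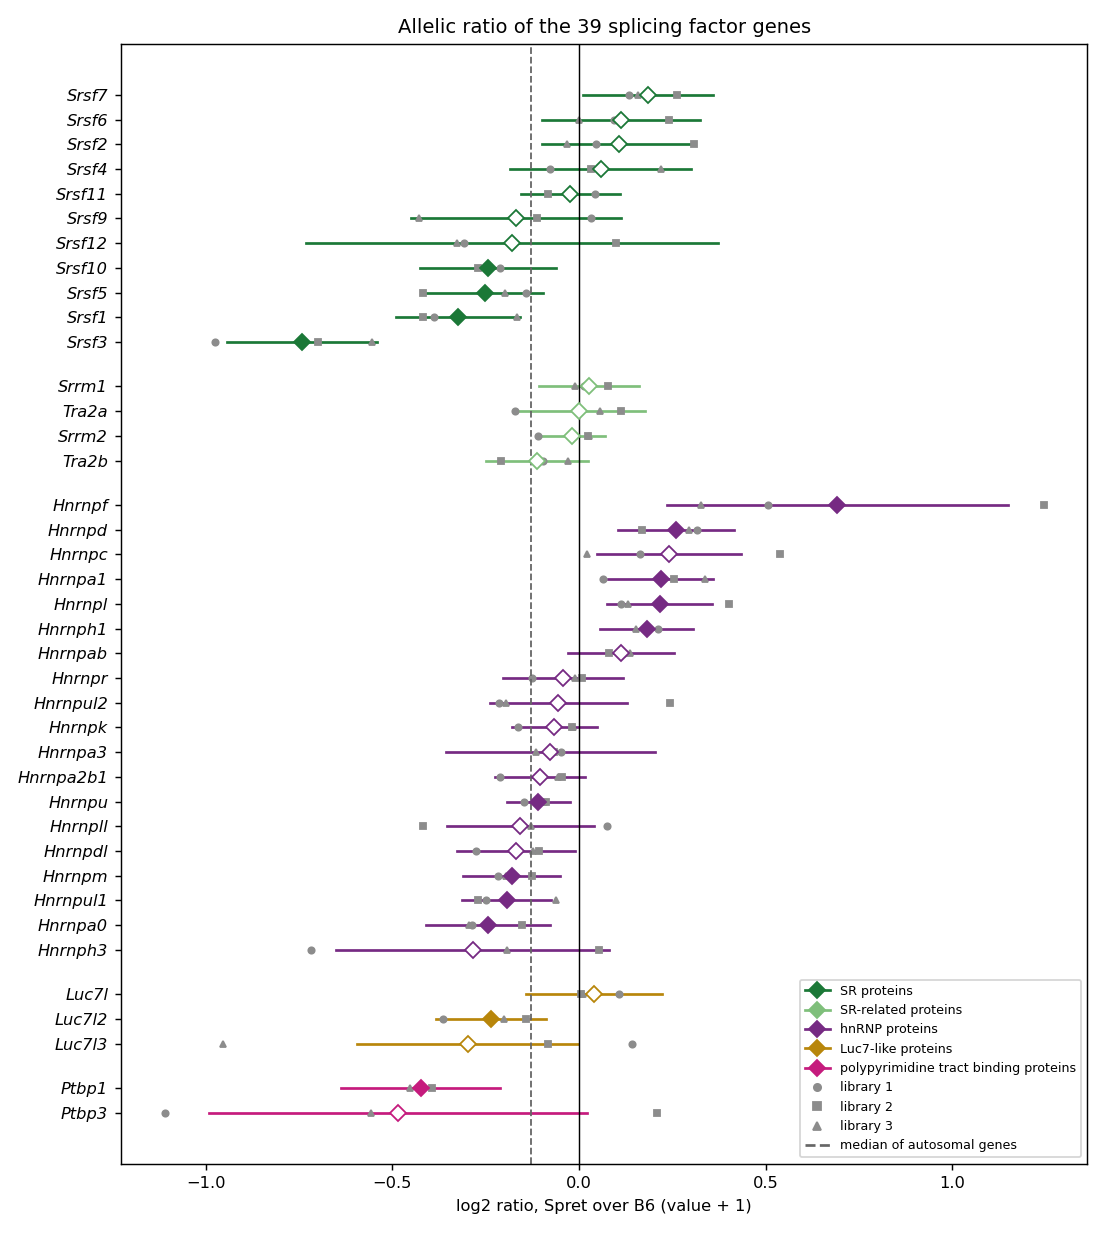
Log2 ratio of Spret over B6 for the 39 splicing factor genes, grouped by family. Diamonds are limma estimates with 95% intervals, filled where the adjusted p is under 0.05, small grey symbols are the 3 libraries, and the dashed line is the autosomal median of -0.13. Srsf3 at -0.74 and Hnrnpf at 0.69 mark the ends of the range.

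**Figure D2:**
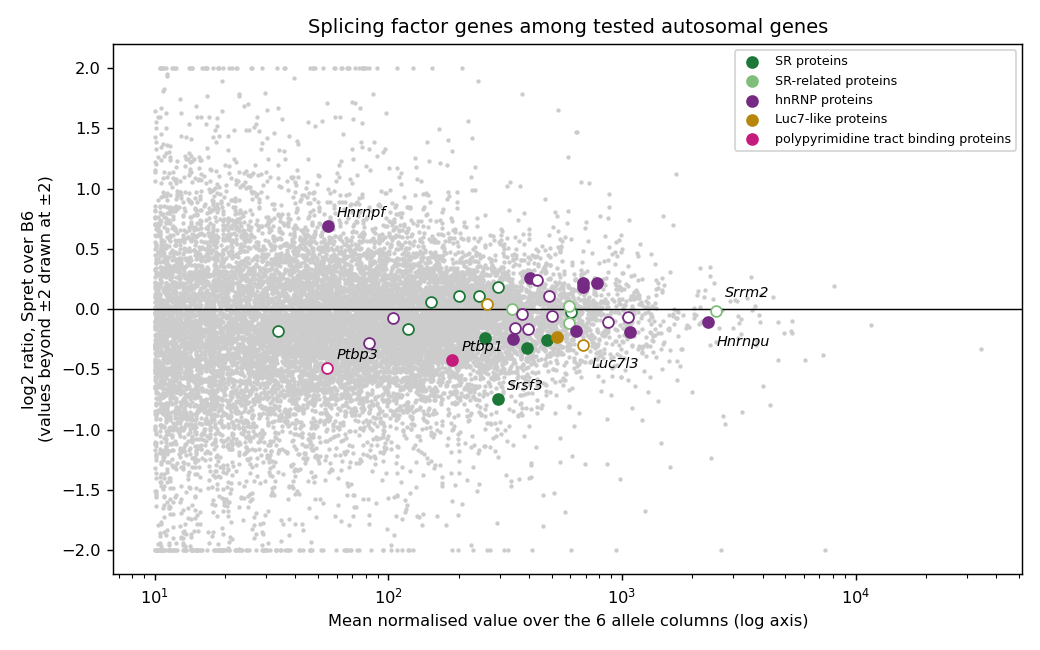
Ratio of Spret over B6 against the mean value over the 6 allele columns (log axis), for tested autosomal genes in grey and the splicing factor genes in colour, filled where called. Ratios beyond 2 in either direction are drawn at that limit. The splicing factors lie between -0.74 and 0.69, and Hnrnpu and Srrm2 have the highest values.

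The promoters of 4 genes are printed here, chosen by the ratios given below, and whether the sequences bear on those ratios was not tested. Srsf3 was called in more alternatives than any other gene of the set, and Hnrnpd has alleles that do not overlap and lean to Spret. Hnrnpa1 and Hnrnpa2b1 each share their start region with a heterochromatin protein gene whose ratio lay apart from theirs in 3 of 3 libraries. Each promoter is the RefSeq reference sequence of GRCm38.p6, from 250 bases before to 50 bases after the transcript start, 5′ to 3′ on the gene's strand. It is the B6-derived reference, and Spret sequence was not used here. Capitals mark GGGCGG (the GC box), CCAAT and TATAAA, or their reverse complements. The positions are chr17:29032410-29032709 (plus strand) for Srsf3, chr5:99978889-99979188 (minus) for Hnrnpd, chr15:103240147-103240446 (plus) for Hnrnpa1 and chr6:51469845-51470144 (minus) for Hnrnpa2b1, which has a further start in the table.
Srsf3: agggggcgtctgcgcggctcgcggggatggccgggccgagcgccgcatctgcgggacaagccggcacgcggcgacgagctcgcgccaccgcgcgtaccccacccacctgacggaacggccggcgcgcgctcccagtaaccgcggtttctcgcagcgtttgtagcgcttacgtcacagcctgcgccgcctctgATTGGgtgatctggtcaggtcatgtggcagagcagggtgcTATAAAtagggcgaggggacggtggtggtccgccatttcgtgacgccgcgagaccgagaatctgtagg
Hnrnpd: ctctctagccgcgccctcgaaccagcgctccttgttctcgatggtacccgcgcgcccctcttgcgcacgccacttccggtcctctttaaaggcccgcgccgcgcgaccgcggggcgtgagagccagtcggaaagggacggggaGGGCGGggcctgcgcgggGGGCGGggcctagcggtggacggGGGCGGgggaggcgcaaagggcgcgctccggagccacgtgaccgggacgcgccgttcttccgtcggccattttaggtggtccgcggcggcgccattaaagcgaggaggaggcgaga
Hnrnpa1: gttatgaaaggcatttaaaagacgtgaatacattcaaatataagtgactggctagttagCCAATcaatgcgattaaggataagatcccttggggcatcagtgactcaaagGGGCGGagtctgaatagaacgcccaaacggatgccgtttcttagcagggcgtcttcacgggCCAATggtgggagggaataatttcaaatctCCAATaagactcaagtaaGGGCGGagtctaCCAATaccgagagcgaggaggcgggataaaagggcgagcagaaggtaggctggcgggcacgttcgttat
Hnrnpa2b1: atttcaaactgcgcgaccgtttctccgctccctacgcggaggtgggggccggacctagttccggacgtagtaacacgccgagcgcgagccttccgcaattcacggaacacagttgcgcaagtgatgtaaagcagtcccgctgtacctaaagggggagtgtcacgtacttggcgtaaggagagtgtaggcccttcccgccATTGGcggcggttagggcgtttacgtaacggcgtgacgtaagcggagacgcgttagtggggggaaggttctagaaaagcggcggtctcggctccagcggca

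These 4 sequences differ in make-up. The Srsf3 promoter held 42 CG dinucleotides in its 300 bases, 1 TATAAA and 1 CCAAT, and no GGGCGG. The Hnrnpd promoter held 45 CG dinucleotides and 3 GGGCGG. The Hnrnpa1 promoter held 16 CG dinucleotides, 4 CCAAT and 2 GGGCGG, and that of Hnrnpa2b1 held 34 CG dinucleotides and 1 CCAAT. Promoters were found for 35 of the 39 genes, 48 starts in all, and none for Hnrnpll, Hnrnpul2, Luc7l and Ptbp3. GGGCGG on either strand stood in 79.2% of the splicing factor promoters and in 35.7% of the 32851 promoters of the same length. For CCAAT the shares were 50% and 37.4%, and for TATAAA 8.33% and 13.6%. The median number of CG dinucleotides was 30 against 7. The 32851 are all promoters, and no comparison with promoters of genes of like level was made. These shares describe the letters in this window and show nothing about which factors bind there.

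Among the 11 SR proteins, 4 were called, all higher from B6: Srsf3, Srsf1, Srsf5 and Srsf10. Srsf3, a small SR protein that also takes part in RNA export, lies at chr17:29032628-29043373 (mm10). Its B6 values were 414, 306 and 388 in libraries 1, 2 and 3, and its Spret values 210, 188 and 264. The lowest B6 value was above the highest Spret value. The mean was 369 ± 56.4 from B6 and 221 ± 39.1 from Spret (SD, n = 3), a ratio of -0.74 ± 0.09 (SE, limma adjusted p = 2.42e-05), or 1.67-fold. The ratio was -0.98, -0.70 and -0.55 in the 3 libraries, and -0.62 with centred ratios (adjusted p = 0.000115). Srsf1, the founding SR protein, which works in both constitutive and alternative splicing, read 525, 384 and 405 from B6 and 401, 287 and 361 from Spret (chr11:88047373-88053755). B6 was higher in 3 of 3 libraries, although the ranges of the alleles overlap, with a ratio of -0.32 ± 0.08 (limma adjusted p = 0.00548). Srsf5 read 572, 457 and 519 from B6 and 518, 342 and 452 from Spret (chr12:80945504-80950507), a ratio of -0.25 ± 0.07 (limma adjusted p = 0.0175). Srsf10, which represses splicing when it is dephosphorylated, read 321, 256 and 266 from B6 and 277, 212 and 224 from Spret (chr4:135855747-135869908), a ratio of -0.24 ± 0.09 (limma adjusted p = 0.0432). In both genes B6 was higher in 3 of 3 libraries and the ranges overlap. With centred ratios the calls of Srsf1, Srsf5 and Srsf10 ended (limma adjusted p = 0.0652, 0.207 and 0.325). Srsf1 was also lost without library 1 (adjusted p = 0.0899), and Srsf5 and Srsf10 whichever library was left out (0.0572, 0.143 and 0.0552 for Srsf5 and 0.143, 0.120 and 0.145 for Srsf10, without libraries 1, 2 and 3).

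The other 7 SR genes did not pass the test. Srsf11 had the highest summed value of the family, with 646, 558 and 627 from B6 and 665, 527 and 614 from Spret (chr3:158010473-158036639). The alleles took turns in being higher, and the ratio was -0.02, with a 95% interval from -0.16 to 0.11. Srsf2, a regulator of exon inclusion, had a ratio of 0.11, Srsf6 0.11 and Srsf4 0.06, with limma adjusted p from 0.424 to 0.740. Srsf9 had -0.17 (adjusted p = 0.357) and Srsf12 -0.18 (0.645). Srsf7, a close relative of Srsf3, leaned the other way, with 264, 240 and 327 from B6 and 290, 288 and 365 from Spret. Spret was higher in 3 of 3 libraries, with a ratio of 0.19 ± 0.08 (limma adjusted p = 0.102) that was called when ratios were centred (0.31, adjusted p = 0.0107). None of the 4 SR-related genes was called by limma, nor did any reach an unadjusted p under 0.05. Srrm2, a large scaffold protein of nuclear speckles, read 2256, 1716 and 3635 from B6 and 2092, 1744 and 3705 from Spret (chr17:23790532-23824741). Its level was much higher in library 3 than in the others, but the alleles stayed close, with a ratio of -0.02 and a 95% interval from -0.11 to 0.07. The interval was -0.11 to 0.16 for Srrm1, its partner in the splicing coactivator, and -0.18 to 0.18 for Tra2a. Tra2b, which promotes inclusion of exons with purine-rich enhancers, had a ratio of -0.11 (adjusted p = 0.204).

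**Figure D3:**
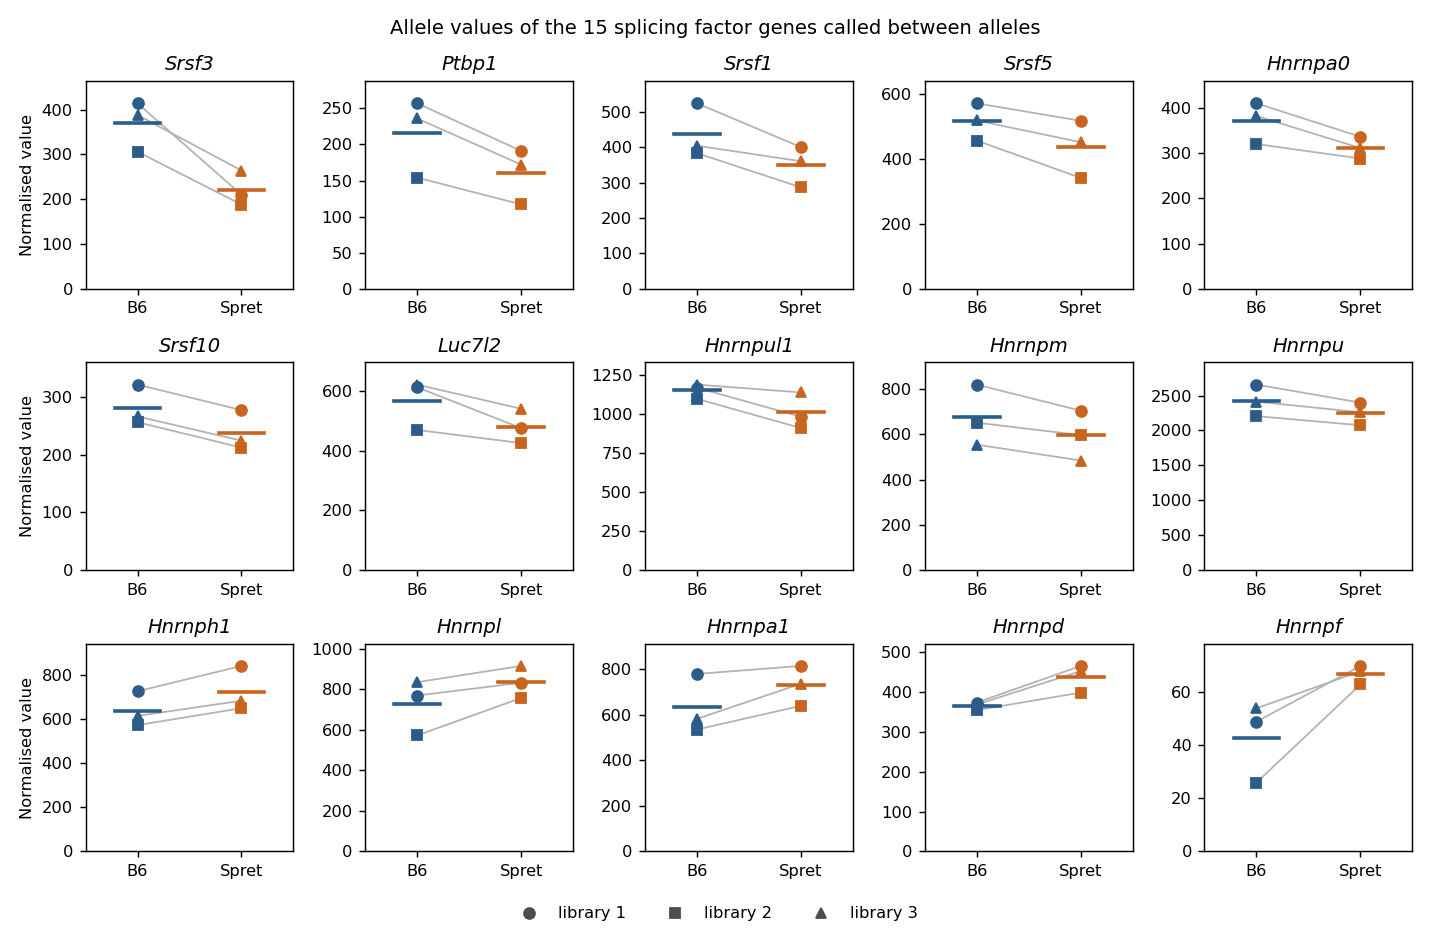
Normalised values of the 15 called genes from B6 (blue) and Spret (orange) in libraries 1 to 3, with lines joining the alleles of a library and bars at the means. Every vertical axis starts at 0. Srsf3, Hnrnpd and Hnrnpf are the genes in which the alleles do not overlap.

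The hnRNP genes held calls in both directions, 5 higher from Spret and 4 from B6 among 19. The autosomal shares were 7.78% toward Spret and 20.7% toward B6. Of the 884 autosomal genes averaging at least 500, 146 were called toward Spret and 304 toward B6. With centred ratios 7 of the 19 were called, all higher from Spret, since the calls toward B6 ended and Hnrnpab and Hnrnpc were added. Centred calls of autosomal genes averaging at least 500 also leaned to Spret, with 273 of 884 toward Spret and 169 toward B6. The SR gene Srsf7 was then called toward Spret as well, and whether the families differ in direction was not tested. Hnrnpf, which binds G-rich RNA beside splice sites, had the largest ratio of the 39 toward Spret. It read 49, 26 and 54 from B6 and 70, 63 and 68 from Spret (chr6:117900324-117925622). The alleles did not overlap, and the mean was 43.0 ± 14.9 from B6 and 67.0 ± 3.61 from Spret (SD, n = 3). The ratio was 0.69 ± 0.21 (SE, limma adjusted p = 0.0237), or 1.62-fold, and 0.82 with centred ratios (adjusted p = 0.00936), then farther from 0 than Srsf3. Its values are among the lowest of the set, and the 26 of library 2 stands for about 20.4 reads. Library 2 also had the largest ratio, 1.25 against 0.51 and 0.33 in libraries 1 and 3. Without library 2 the ratio was 0.42 (limma adjusted p = 0.163), and without library 1 it was 0.79 (0.0988). Hnrnph1, of the same family, read 728, 574 and 616 from B6 and 843, 651 and 685 from Spret (chr11:50376990-50386528). Spret was higher in 3 of 3 libraries, with a ratio of 0.18 ± 0.06 (limma adjusted p = 0.0291). Hnrnph3 had a ratio of -0.29 ± 0.17 (adjusted p = 0.228), which stood at -0.72 in library 1 and at 0.05 and -0.19 in the others.

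Hnrnpd, known as AUF1 for its binding to AU-rich elements that control mRNA decay, read 374, 355 and 369 from B6 and 466, 399 and 453 from Spret (chr5:99955935-99978938). Every Spret value was above every B6 value, and B6 varied little between libraries. The mean was 366 ± 9.85 from B6 and 439 ± 35.5 from Spret (SD, n = 3), a ratio of 0.26 ± 0.07 (SE, limma adjusted p = 0.0144), or 1.20-fold. Its paralogue Hnrnpdl lies 54.6 kb away on chromosome 5 and read 483, 333 and 440 from B6 and 399, 309 and 404 from Spret. Here B6 was higher in 3 of 3 libraries, with a ratio of -0.17 ± 0.07 that missed the threshold (limma adjusted p = 0.101). Of the hnRNP A/B proteins, Hnrnpa1 was higher from Spret and Hnrnpa0 from B6. Hnrnpa1, a classical repressor of exons, read 779, 535 and 582 from B6 and 814, 639 and 736 from Spret (chr15:103240432-103246692). Spret was higher in 3 of 3 libraries, with a ratio of 0.22 ± 0.07 (limma adjusted p = 0.0206) that was small in library 1. Hnrnpa0 read 410, 320 and 382 from B6 and 336, 288 and 311 from Spret (chr13:58125879-58128556), a ratio of -0.24 ± 0.08 (adjusted p = 0.0278). The ranges of its alleles overlap, and the call ended with centred ratios (0.271). Hnrnpa2b1 and Hnrnpa3 were not called, at -0.10 and -0.08, and Hnrnpab, at 0.11 (limma adjusted p = 0.220), was called with centred ratios (0.24, adjusted p = 0.0147).

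Hnrnpl, which binds CA repeats, read 770, 573 and 836 from B6 and 833, 758 and 916 from Spret (chr7:28808541-28822266), a ratio of 0.22 ± 0.07 (limma adjusted p = 0.0219). Its paralogue Hnrnpll leaned toward B6, at -0.16 ± 0.09, and was not called (0.220). Library 2 carried most of that ratio, which was 0.08, -0.42 and -0.13 in the 3 libraries and -0.03 without library 2. Hnrnpc, which binds uridine tracts and packages pre-mRNA, read 455, 331 and 411 from B6 and 510, 481 and 417 from Spret. Its ratio of 0.24 ± 0.09 came close to the threshold (limma adjusted p = 0.0553) and passed it with centred ratios (0.36, adjusted p = 0.00642) and without library 3 (0.35, adjusted p = 0.0313). Without library 2 it was 0.09 (adjusted p = 0.478). The alleles of Hnrnpc were nearly equal in library 3 and farthest apart in library 2, where the ratio was 0.54. The hnRNP calls toward B6 beside Hnrnpa0 were Hnrnpu, Hnrnpul1 and Hnrnpm, which had the ratios nearest to 0 of the 10 calls toward B6. Hnrnpu, a scaffold attachment protein, read 2657, 2205 and 2413 from B6 and 2399, 2075 and 2261 from Spret (chr1:178321108-178337797), a ratio of -0.11 ± 0.04 (limma adjusted p = 0.0485). With centred ratios it stood at 0.01 (adjusted p = 0.833). Hnrnpul1 read 1167, 1096 and 1187 from B6 and 981, 909 and 1137 from Spret (chr7:25721165-25754757), a ratio of -0.19 ± 0.06 (adjusted p = 0.0157). Hnrnpm, a repressor and activator of exons with GU-rich sites, read 819, 651 and 554 from B6 and 704, 596 and 484 from Spret (chr17:33646233-33686860), a ratio of -0.18 ± 0.06 (adjusted p = 0.0362). In all of them B6 was higher in 3 of 3 libraries, and centring ended the calls of Hnrnpul1 and Hnrnpm too (adjusted p = 0.368 and 0.530). Hnrnpk, at -0.07, Hnrnpr, at -0.04, and Hnrnpul2, at -0.06, were not called, with limma adjusted p from 0.374 to 0.712. Leaving out library 1 ended the calls of Hnrnpd, Hnrnph1, Hnrnpl, Hnrnpa0, Hnrnpu, Hnrnpul1 and Hnrnpm (limma adjusted p 0.0656 to 0.226), but not that of Hnrnpa1 (0.0309). Leaving out library 2 ended those of Hnrnpa1, Hnrnph1, Hnrnpl, Hnrnpm, Hnrnpu and Hnrnpul1 (0.0608 to 0.220). Leaving out library 3 ended those of Hnrnpd, Hnrnpa0, Hnrnpa1, Hnrnph1, Hnrnpm and Hnrnpu (0.0769 to 0.178). For Hnrnpl the ratio was 0.12 without library 2, compared with 0.22 over all libraries, and for Hnrnpa1 it was 0.30 without library 1 and 0.16 without library 3.

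Of the Luc7-like genes, Luc7l2 was called, with 613, 470 and 622 from B6 and 476, 426 and 541 from Spret (chr6:38551334-38609470). B6 was higher in 3 of 3 libraries, with a ratio of -0.24 ± 0.07 (limma adjusted p = 0.0178) that was not called when centred (0.245), without library 1 (0.183) or without library 3 (0.0658). Luc7l3 had the highest summed value of the 3 genes and differed between libraries. It read 617, 550 and 1128 from B6 and 681, 519 and 582 from Spret (chr11:94287890-94321988). Library 3 held almost all of the difference, with a ratio of -0.95 against 0.14 and -0.08 in libraries 1 and 2. The ratio was -0.30 ± 0.14 over the 3 libraries (limma adjusted p = 0.118) and 0.03 without library 3 (0.847). Luc7l had a ratio of 0.04, with a 95% interval from -0.14 to 0.22. Ptbp1 was higher from B6 by a nearly constant amount. It read 257, 154 and 236 from B6 and 191, 117 and 172 from Spret (chr10:79854427-79864771). The level differed between libraries, so that the ranges overlap, but the ratio was -0.43, -0.39 and -0.45 in libraries 1, 2 and 3. The fitted ratio was -0.42 ± 0.10 (SE, limma adjusted p = 0.00472), or 1.34-fold, and -0.30 with centred ratios (adjusted p = 0.0346). It was not called without library 1 (0.0585). Ptbp3, the paralogue found mainly in blood-forming tissue, read 94, 31 and 74 from B6 and 43, 36 and 50 from Spret. B6 was higher in libraries 1 and 3 and Spret in library 2, with ratios of -1.11, 0.21 and -0.56. The fitted ratio of -0.49 was not called (limma adjusted p = 0.138), and without library 2 it was -0.83 (0.0111).

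**Figure D4:**
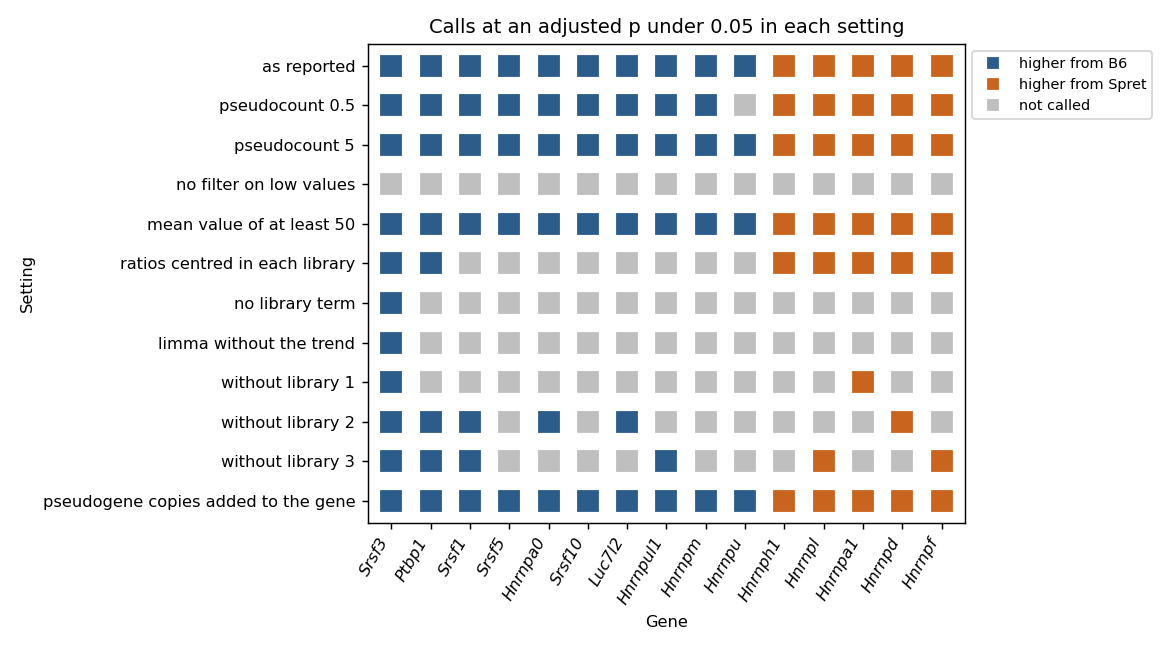
Calls of the 15 genes at an adjusted p under 0.05 (rows: settings; columns: genes), blue where higher from B6, orange where higher from Spret and grey where not called. Srsf3 was called in 10 of 11 alternatives and Ptbp1 in 7 of 11.

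Srsf3 was called in 10 of 11 alternatives, with limma adjusted p from 3.55e-06 to 0.0691 over them, and the call ended with no filter on low values. No other gene of the 15 was called in more than 7 of 11, the number for Ptbp1. All 15 kept the direction of their ratio in the 11 alternatives except Hnrnpu with centred ratios.

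Levels also differed between genes and libraries. Summed over both alleles and divided by exon length, Hnrnpa1 stood highest, at 432 values per kb of exon (mean over libraries), followed by Hnrnpu at 403, Srrm2 at 393, Hnrnpab at 349.5 and Hnrnpk at 329. The lowest were Ptbp3 at 14.6, Srsf12 at 21.5 and Hnrnpr at 33.5. Exon length counts every annotated exon base, and Hnrnpr has the most of the 39, 22199, with a mean summed value of 744. The number of sites that tell the alleles apart differs between genes and is not known here, so these levels per length are not those of all reads. Srrm2 summed to 4348, 3460 and 7340 in libraries 1, 2 and 3, Luc7l3 to 1298, 1069 and 1710, Srrm1 to 1188, 865 and 1502, and Srsf12 to 45, 27 and 131, each highest in library 3. Hnrnpm went from 1523 to 1247 and 1038 and was lowest there. The neuronal markers Tbr1, Dcx and Map2 were also highest in library 3, and their part in these levels was not tested. In bulk RNA, fewer cells of a type and less RNA per cell cannot be told apart, and no test was run on these levels. The 39 genes held 0.857%, 0.778% and 0.790% of all values, and 48.3%, 49.6% and 48.8% of their values came from Spret, where autosomal genes had 47.7%, 47.7% and 47.9%.

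Several of these genes share a start region with a neighbour on the opposite strand. A gene that starts within 1000 bases and runs the other way was annotated for 14 of the 39, and 8 such pairs could be tested. In 2 of the 8 pairs the neighbour was itself called, a share close to the 28.4% of autosomal genes. Cbx5 encodes the heterochromatin protein HP1 alpha and starts 616 bases from Hnrnpa1, whose promoter is printed above. It read 884, 781 and 863 from B6 and 834, 616 and 779 from Spret, a ratio of -0.19 ± 0.06 (limma adjusted p = 0.0310), against 0.22 for Hnrnpa1. The ratio of Cbx5 was below that of Hnrnpa1 in 3 of 3 libraries, by 0.41 ± 0.23 on average (SD, n = 3). Cbx3, which encodes HP1 gamma, starts 466 bases from Hnrnpa2b1. Cbx3 read 250, 281 and 265 from B6 and 352, 294 and 361 from Spret, a ratio of 0.33 ± 0.09 (limma adjusted p = 0.0152), against -0.10 for Hnrnpa2b1, which read 1072, 748 and 905 from B6 and 925, 725 and 871 from Spret. The ratio of Cbx3 was above that of Hnrnpa2b1 in 3 of 3 libraries, by 0.44 ± 0.30 (SD, n = 3). With centred ratios Hnrnpa2b1 stood at 0.02 and both genes of this pair were above 0. With 3 libraries the smallest p that an exact two-sided sign-flip test can give is 0.25, and no other test of the difference was run. The call of Cbx5 ended with centred ratios (adjusted p = 0.451) and without each library (0.0655, 0.250 and 0.0790 without libraries 1, 2 and 3). That of Cbx3 was kept with centred ratios (0.46, adjusted p = 0.00179) and ended without library 1 (0.186) and without library 3 (0.132). In the other 6 pairs the neighbour was not called, among them Srsf11 and Lrrc40, which start 23 bases apart, with ratios of -0.02 and -0.20. The ratio of Lrrc40 was also below that of Srsf11 in 3 of 3 libraries, by 0.18 ± 0.09 (SD, n = 3). In the remaining pairs the sign of the difference changed between libraries. How often gene pairs in general keep the same sign was not examined.

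**Figure D5:**
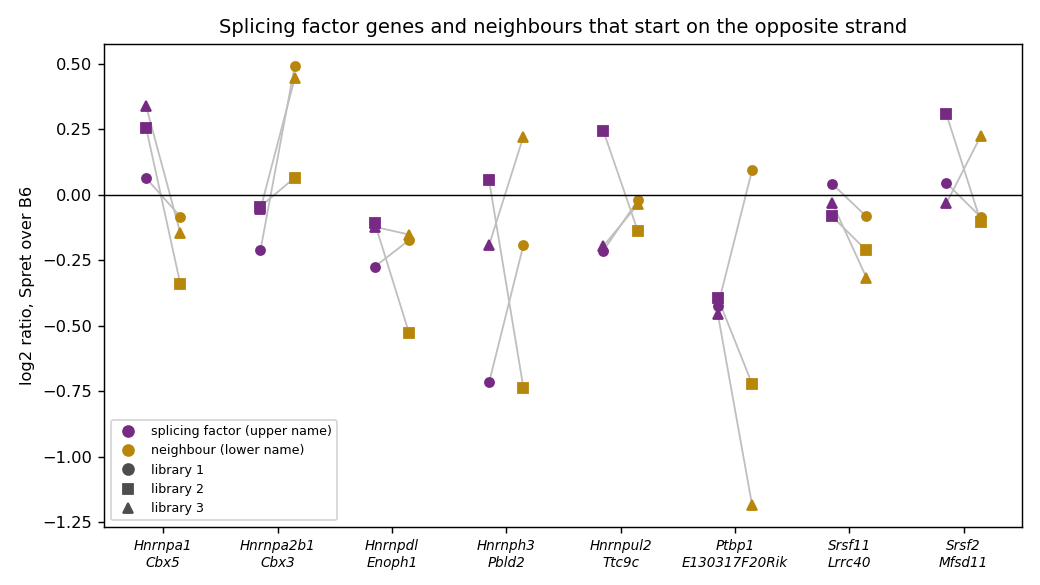
Log2 ratio of Spret over B6 in each library for 8 splicing factor genes (purple) and the neighbour that starts within 1000 bases on the opposite strand (yellow), joined by library. Cbx5 lies below Hnrnpa1, Cbx3 above Hnrnpa2b1 and Lrrc40 below Srsf11 in 3 of 3 libraries, and in the other pairs the order changes between libraries.

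Genes of the set that lie within 1000000 bases of each other formed 6 pairs, and the difference within a pair was not tested. Hnrnpd and Hnrnpdl differed by 0.43 ± 0.16 (SD, n = 3). Hnrnpll and Srsf7, 138 kb apart on chromosome 17, had ratios of -0.16 and 0.19, a difference of 0.34 ± 0.31 that was 0.06, 0.68 and 0.29 in libraries 1, 2 and 3 and so rested largely on library 2. Srsf10 lay below Srrm1 by 0.27 ± 0.07 and below Hnrnpr by 0.20 ± 0.10 on chromosome 4, and Hnrnpa0 below Hnrnpk by 0.18 ± 0.09 on chromosome 13. Each of these differences had the same sign in 3 of 3 libraries. The sixth pair, Srrm1 and Hnrnpr, differed by 0.07 with the same sign in 2 of 3.

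Shared exons limit some of these values. An exon of another annotated gene overlaps exons of 18 of the 39, and of 8 of the 15 called. Whether the counting used strand is not given in these sources, so reads of both could be mixed. Hnrnpf shares 396 bases with Gm43863, which runs the other way and read 36, 29 and 41 from B6 and 67, 51 and 58 from Spret. Its ratio of 0.72 ± 0.20 (limma adjusted p = 0.0154) was close to the 0.69 of Hnrnpf, as was that of 4933440N22Rik, at 0.70 (0.0543), which shares 410 bases and stood at 0.33 (0.358) without library 2. Hnrnpd shares 385 bases with the antisense Gm17092, which read 158, 145 and 122 from B6 and 211, 219 and 198 from Spret, a ratio of 0.57 ± 0.11 (limma adjusted p = 0.000930). The antisense gene leaned the same way as Hnrnpd and by more. Ptbp1 shares 437 bases with the antisense Gm17134, which read 43, 18 and 26 from B6 and 7, 1 and 5 from Spret. The ratio of Gm17134 was -2.63 ± 0.38 (limma adjusted p = 8.66e-05). Ptbp1 also shares 295 bases with E130317F20Rik, at -0.60 (0.122), and 251 bases with Plppr3, at 0.12 (0.120). Hnrnpm shares 1169 bases with Marchf2 on its own strand, which read 101, 128 and 134 from B6 and 52, 55 and 84 from Spret, a ratio of -0.94 ± 0.15 (limma adjusted p = 0.000303). Hnrnpab shares 809 bases with Phykpl, at -0.24 (0.0204), and Hnrnpu shares 804 with Cox20, at -0.15 (0.233). Srsf1, Hnrnpl and Luc7l2 overlap Gm11508, Gm44702 and Gm26699, which were not tested. How much the overlapping genes add to a member's ratio was not tested. Without library 1 the call of Gm43863 ended (0.124), and that of Phykpl ended without library 1 or library 3 (0.142 and 0.187).

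Processed pseudogenes could also take or give reads, since copies of these genes lie across the genome. Whether reads were misplaced was not tested. Copies of at least 200 bases and 90% identity numbered 90. Hnrnpa3 had 38, of which 28 were in the table, and their summed values came to 53.8% of those of the gene. Added to Hnrnpa3, they moved its ratio from -0.08 to -0.33 (limma adjusted p = 0.0314), a call toward B6, which makes its ratio uncertain. A copy of Hnrnpk on chromosome 7, Gm7964, matches the gene at 99.2% over 1378 bases and read 3, 3 and 5 from B6 but 159, 130 and 147 from Spret. With its copies added, Hnrnpk moved from -0.07 to 0.12 (0.0941). The copies came to 3.64% of the values of Hnrnpf, 3.08% of Hnrnpa1 and 1.02% of Srsf3, and adding copies ended none of the 15 calls.

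Other genes of the splicing pathway went both ways too. Their counts can be read against the autosomal shares of 28.4% called, 7.78% toward Spret and 20.7% toward B6, or 13.3% and 13.5% when centred. Of the 884 autosomal genes averaging at least 500, 50.9% were called, 146 toward Spret and 304 toward B6. When centred, 273 of them were called toward Spret and 169 toward B6. Of 69 core spliceosome proteins, 24 passed (34.8%), 7 toward Spret and 17 toward B6, with 14 and 10 when centred. The branch point protein Sf3b1, the ubiquitin ligase Prpf19 and the helicase Ddx46 were higher from Spret, with ratios of 0.14 ± 0.05, 0.22 ± 0.06 and 0.28 ± 0.07 (limma adjusted p = 0.0328, 0.00849 and 0.00951). Sf3b2, the U1 protein Snrnp70 and Prpf39 were higher from B6, at -0.18 ± 0.05, -0.26 ± 0.07 and -0.28 ± 0.07 (0.0239, 0.00875 and 0.0113), and lost their calls when centred. Cwc22, which recruits the exon junction complex, was chosen after its values were seen. It read 35, 48 and 30 from B6 and 0, 0 and 1 from Spret, a limma ratio of -4.91 (adjusted p = 8.22e-07) whose size depends on the pseudocount, and was the only gene of the core list past 2-fold. Of 14 genes that phosphorylate, dephosphorylate or import SR proteins, 6 passed (42.9%), 1 toward Spret and 5 toward B6, or 3 and 3 when centred. The kinase Clk1 read 668, 574 and 699 from B6 and 556, 346 and 533 from Spret, a ratio of -0.46 ± 0.08 (limma adjusted p = 0.000557). The kinase Srpk2 and the import receptor Tnpo3 were also higher from B6, at -0.33 ± 0.07 and -0.26 ± 0.08 (0.00255 and 0.0205), and the phosphatase subunit Ppp1cc was higher from Spret, at 0.45 ± 0.07 (0.000135). The call of Tnpo3 ended with centred ratios (0.208). Of 62 other nuclear RNA-binding and splicing proteins, 27 passed (43.5%), 8 toward Spret and 19 toward B6, or 15 and 11 when centred. Matr3, Srrt and Rsrp1 were higher from Spret, at 0.20 ± 0.05, 0.37 ± 0.07 and 0.28 ± 0.09. Son, a core protein of nuclear speckles, Bclaf1 and the helicase Ddx5 were higher from B6, at -0.29 ± 0.05, -0.22 ± 0.05 and -0.31 ± 0.05, and the call of Bclaf1 ended when centred. Of 19 proteins of nonsense-mediated decay and the exon junction, 3 were called (15.8%), all higher from B6: Rnps1, which activates splicing, joins the exon junction complex and is also counted among the 62, at -0.86 ± 0.09 (limma adjusted p = 1.80e-06), Smg5 at -0.51 ± 0.11 and Smg9 at -0.44 ± 0.14. Centring gave 6 calls, 4 toward Spret and 2 toward B6, without Smg9. Median ratios of the 4 lists lay between -0.12 and -0.08, against -0.13 for autosomal genes and -0.06 for those averaging at least 500. Leaving out library 1 ended the calls of Sf3b1, Sf3b2, Prpf19, Prpf39, Snrnp70, Ddx46, Srpk2, Tnpo3, Rsrp1 and Smg9 (limma adjusted p 0.0522 to 0.169). Leaving out library 2 ended those of Sf3b2, Prpf39, Tnpo3, Rsrp1 and Smg9 (0.0567 to 0.211), and leaving out library 3 those of Sf3b1, Sf3b2, Ddx46, Rsrp1 and Smg9 (0.0633 to 0.172). Rsrp1 had a ratio of 0.17 without library 2.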

How the data were processed

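RNA was measured in 3 libraries of SpretB6 organoids, each with a B6 and a Spret value per gene. The values are a score: the authors deposited allele-specific read numbers that the table's name calls normalised, rounded to whole numbers. Per the labels' protocols, libraries were ribosome-depleted and meant to reach 80M reads each. Per the submitters' processing notes, reads were placed on mm10. The aligner, the assignment of reads to alleles, the counter and the normalisation are not given in the sources used here. If that assignment favoured the reference genome, ratios would shift toward B6. Gaps in the values fitted scale factors of 1.156, 1.276 and 0.672 for libraries 1, 2 and 3, which does not give back whole reads in library 3. A count test had been set aside for raw reads and did not apply.

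Positions came from GENCODE M21 for 42620 genes and from RefSeq for 899 more. The 15985 genes with a mean of at least 10 (15456 of them autosomal) were fitted on log2(value + 1) with limma 3.58.1 in R 4.3.3. Library and allele were terms, with an intensity trend, 2 residual and 12.3 prior degrees of freedom, two-sided tests and Benjamini-Hochberg adjustment over all tested genes. A log2 ratio with a pseudocount understates the differences of low genes. The pairing by library rests on the material, as 1 RNA sample gave both alleles. Across tested genes, B6 and Spret deviations from their allele means correlated at 0.200, 0.427 and 0.540 within libraries 1, 2 and 3. Between libraries the correlations ran from -0.428 to 0.0164. A gene's deviations cancel over the 3 libraries, so these correlations are not independent of those within libraries. The script was tested on simulated data. Pseudogene copies were found with BLAST 2.17.0. The genes and lists were chosen with earlier results of these data known. By the rule for named genes, values are given for each called splicing factor and the most abundant of each family, and the 3 most abundant called genes per direction of every other list are named. The 11 alternatives covered the pseudocount, the filter, centring, the library term, the trend, each library left out and, added after seeing the data, pseudogene copies. The 12 induced pluripotent stem cell samples were not analysed here.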

Additional observations from a re-analysis of the deposited data

How the results depend on the processing

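The median ratio of the 39 splicing factors went from -0.08 to 0.0460 when ratios were centred, and Hnrnpu from -0.11 to 0.0138. The nonsense-mediated decay and exon junction list then had 6 calls in place of 3. With no filter on low values (1.66 prior degrees of freedom, 1.72% of autosomal genes called) limma called 0 of the 39, with 17 at an unadjusted p under 0.05, and 5 core spliceosome genes, 1 kinase or phosphatase gene, 3 of the other nuclear proteins and 0 of the decay list (5 unadjusted). Without the library term, which is the pairing of the alleles in a replicate block, the counts were 1 of the 39 (Srsf3), 3, 0, 2 and 1, with 2 unadjusted for the kinase list. Without limma's trend they were 1 (Srsf3), 5, 0, 6 and 1, with 5 unadjusted for the kinase list. Of tested autosomal genes, 7.03% were called without the library term and 11.5% without the trend. Leaving out each library in turn gave 2 to 7 of the 39, 10 to 16 core, 3 to 6 kinase, 17 to 24 other nuclear and 2 to 3 decay genes. The autosomal share called was then 14.4% to 23.5%. Pseudocounts of 0.5 and 5 gave 14 and 16 calls of the 39, a mean of at least 50 gave 16, and pseudogene copies added gave 16. Autosomal shares in these settings were 27.7%, 30.0%, 37.7% and 28.5%. No other tool was run. Why the counts moved was not tested. Depth limits Hnrnpf, Ptbp3 and Srsf12 most, and intervals cover these 3 libraries only.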
